A study of Macaca mulatta with 38 samples.

Results

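A set of 44 barcodes held most barcode reads of the granulocytes and monocytes of a transplanted rhesus macaque at day 119, held little of either lineage by day 365, and in 39 of 44 cases were still listed in T cells on the last day sampled. They are 44 of the 44423 barcode sequences counted in the blood of the macaque ZL34. The members were chosen by their measured shares, as a percent of the reads of a library. Each held at least 0.2% in 1 or more of the Gr and Mono libraries of days 119 and 187, a mean below 0.5% over the 5 nRBC libraries, and a Gr plus Mono sum at day 119 no smaller than at day 187. These 9 libraries therefore only describe the members and support no comparison. In all, 51 barcodes met the conditions on share and nRBC, and the 7 that are no members had the larger Gr plus Mono sum at day 187. The label "highest at day 119" held for single lineages with few exceptions. The highest Gr share fell at day 119 in 42 members and at day 266 in 2, bc22 and bc27, and the highest Mono share fell at day 119 in 43 and at day 187 in bc27.

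The animal was a male of 4 years whose CD34+ cells, mobilised with G-CSF and AMD1300, were transduced with a barcoded lentiviral library at a multiplicity of infection of 25 and reinfused after total body irradiation (TBI). It was given cidofovir at 5 mg/kg weekly, so all libraries share the irradiation, the vector and this drug. The 38 libraries of peripheral blood DNA comprised 9 labelled T and 8 labelled B, with 7 each for Gr and Mono, 5 for nRBC and 1 each for EOS and CD34p, taken from day 32 to day 553. They are read here as T cells, B cells, granulocytes, monocytes, nucleated red blood cells, eosinophils and CD34+ cells. DNA carries no expression markers, so the sort purity of a library could not be checked. There was 1 library per lineage and day from 1 animal, so spreads below are over days and p-values treat serial days as independent samples, which they are not. Reads of kept barcodes ran from 766039 to 3832849 per library, with the T and B libraries of day 494 smallest. The lowest count above 0 was 101, so a barcode listed at 0 is taken to have 100 reads or fewer. That limit is inferred from the counts and amounts to between 0.00261% and 0.0131% of a library.

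A lentiviral barcode is a random tag that is copied with the genome of the transduced cell into all its descendants, so the share of a barcode in a lineage follows the output of 1 marked cell into it. Granulocytes and monocytes live for hours to days in blood and reflect recent output of marrow progenitors. T cells and B cells can persist and divide for long periods outside the marrow, so a barcode may remain in them after its progenitor has stopped producing myeloid cells. A cell transduced at a high multiplicity can carry several barcodes. In blood DNA, fewer cells of a clone and a growing clone elsewhere in the same library cannot be told apart, since shares add up to a fixed total.

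The sequences below were read from the deposited count table and are written 5′ to 3′ up to the sequencing adapter. Lower case is the constant start of the read and capitals mark the variable part. Barcodes are numbered by mean share over the 38 libraries. bc7, bc8, bc9 and bc12 had the highest Gr plus Mono sums at day 119, bc14 had the highest share of any member in B, bc22 and bc27 were the pair still highest in Gr at day 266, bc60, bc61 and bc67 had the largest fitted difference between T and Gr, and the last 6 were almost lost from T as well.
bc7: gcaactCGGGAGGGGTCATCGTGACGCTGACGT
bc8: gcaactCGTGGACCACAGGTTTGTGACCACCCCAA
bc9: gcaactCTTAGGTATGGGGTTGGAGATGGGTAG
bc12: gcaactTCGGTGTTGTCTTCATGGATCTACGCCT
bc14: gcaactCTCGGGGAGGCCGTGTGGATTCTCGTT
bc22: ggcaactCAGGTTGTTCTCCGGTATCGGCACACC
bc27: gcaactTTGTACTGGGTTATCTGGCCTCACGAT
bc60: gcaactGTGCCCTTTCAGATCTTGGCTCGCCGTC
bc61: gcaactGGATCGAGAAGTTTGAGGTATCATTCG
bc67: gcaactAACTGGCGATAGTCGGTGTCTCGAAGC
bc68: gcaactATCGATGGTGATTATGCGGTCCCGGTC
bc69: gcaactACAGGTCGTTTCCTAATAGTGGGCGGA
bc71: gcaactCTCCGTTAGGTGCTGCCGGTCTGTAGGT
bc72: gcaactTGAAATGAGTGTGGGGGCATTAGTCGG
bc75: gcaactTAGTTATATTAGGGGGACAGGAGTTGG
bc84: gcaactCGGGGGCTGTACCAGCTCGCTC

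No member was close to another in sequence. The variable part was 27 bases long in 33 of the 44 members (75%), against 82.3% of the 43239 sequences in the table in which both ends were found. The shortest were bc31, with 9 bases, and bc20, with 13, and the longest was bc8, with 29. Among the 42 members of at least 20 variable bases, the nearest other member was at least 11 edits away. No other sequence of the 43239 with both ends found lay within 2 edits of any of these 42, so none had a near copy among them. Sequences without both ends were not searched. The GC content of the variable part had a median of 51.9% in the members and 53.6% over all sequences. It ran from 22.2% in the short bc31 to 82.1% in bc77.

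At day 32 the members were already present in the myeloid lineages at low shares. Together they held 1.996% of Gr reads and 2.04% of Mono reads, with 31 and 36 of 44 listed, and 0.133% of B reads with 17 listed. In the T library of that day 0 of 44 were listed, in a library that listed 525 barcodes in all. The highest at day 32 were bc27, with 0.217% in Gr and 0.103% in Mono, and bc22, with 0.240% and 0.0510%. bc33 had 0.116% in Gr and 0.157% in Mono. By share of barcodes listed, 70.5% of the members were seen in Gr at day 32, against 30.3% of the 274 other barcodes that reached 0.05% in some T, B, Gr or Mono library of days 119 and 187. The trait was not particular to the members. All 7 barcodes with the larger Gr plus Mono sum at day 187 were listed in Gr and in Mono at day 32. The members were also chosen for high Gr or Mono shares, while the 274 others needed less and in any lineage. The median Gr share at day 119 was 0.966% in the members and 0.00823% in the others. The contrast in listing at day 32 may thus follow from this choice. The mean of the Gr and Mono shares at day 119 was at least 8.75-fold (bc27) to 121-fold (bc56) that at day 32, with a median of at least 33.4-fold, each 0 being set to 100 reads. Day 119 belongs to the rule, which favours barcodes high on that day, so these folds only describe the members.

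The members filled most of both myeloid libraries at day 119 and were nearly gone from them a year after transplant. On days 32, 119, 187, 266, 365, 494 and 553 their summed share of Mono reads was 2.04, 86.7, 41.3, 19.01, 0.786, 0 and 0.00713%. For Gr the same 7 libraries gave 1.996, 76.0, 30.6, 11.4, 0.128, 0.0126 and 0.0173%. Days 119 and 187 belong to the rule. Of the 44 members, Gr listed 37, 13, 3 and 3 on days 266, 365, 494 and 553, and Mono listed 36, 32, 0 and 2. The last to be listed were bc7, bc8 and bc9, which still had 0.0263%, 0.0266% and 0.0280% of Gr reads at day 365. At day 553 they had 0.00707%, 0.00560% and 0.00460% of Gr reads. bc7, bc8 and bc9 also held the highest shares of any member in Mono at day 365, at 0.136%, 0.139% and 0.132%.

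Over the same days 7 barcodes with a mean of at least 0.5% over the nRBC libraries came to hold nearly all myeloid reads, and among the reads left the members had a sizeable share. These 7 held 15.7% of Gr reads at day 266, 99.6% at day 365 and 99.9% at days 494 and 553. In Mono they held 44.5% at day 266, 98.1% at day 365, and 99.97% or more at days 494 and 553. Counted over the reads of all other barcodes, the members' share in Gr on days 119, 187, 266, 365, 494 and 553 was 78.2, 30.9, 13.5, 34.8, 22.8 and 28.7%. The Mono libraries of these days gave 87.5, 49.0, 34.3, 42.5, 0 and 33.5%. The T libraries gave 30.2 and 38.1% on days 119 and 187, and between 16.3% and 34.0% from day 266 on. The late myeloid values rest on few reads. Other barcodes had 2101 reads in Gr at day 494, 2292 at day 553, and 606 and 806 in Mono on those days. A barcode listed at 0 could there hold up to 4.76% and 4.36% of the other reads in Gr, and up to 16.5% and 12.4% in Mono. For a member listed at 0, a change in its share of these other reads was thus not detectable at this depth on days 494 and 553. The limit also cuts the total of the other reads, which lacks every barcode of 100 reads or fewer. In Gr, 4871 barcodes were listed in all at day 266, and 69, 22 and 18 on days 365, 494 and 553. A share of the other reads is thus too high by an unknown amount on the late days. Over these 4 days bc7 made up 1.05, 7.18, 7.19 and 11.7% of the other Gr reads, with 151 and 269 reads of its own at days 494 and 553. No rise of bc7 can be read from these values.

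In T cells the members were listed from day 119 on and still held 10.6% of reads on the last day. Over days 32, 119, 187, 266, 365, 393, 494, 536 and 553 the summed T shares were 0, 30.1, 37.9, 32.0, 24.7, 26.6, 22.8, 14.2 and 10.6%. For day 553 the exact 95% interval ran from 10.6 to 10.7%, for counting error only. All 44 were listed in T on days 119, 187, 266 and 393, while days 365, 494, 536 and 553 listed 43, 39, 41 and 39. At day 553 this was 88.6% of the members, against 71.9% of the 274 other barcodes, which were chosen at a lower share and in any of the 4 lineages. The T share was highest at day 119 in 22 members and at day 187 in 16. In the other 6 it was highest later, as in bc24 (1.18% at day 266), bc59 (0.320% at day 393) and bc64 (0.252% at day 494). The ratio of the T share at day 553 to that at day 187 was below 1 in 44 of 44 members, with a median of 0.282, and the median over the 175 other barcodes listed at day 187 was 0.294. The 7 barcodes of the nRBC libraries held 13.3% of T reads on day 536 and 49.0% on day 553.

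bc7, bc8 and bc9 made up the largest part of the T signal. In T, bc7 held 3.73, 6.96, 5.57, 4.06, 4.14, 3.50, 1.88 and 1.74% of reads on the 8 days from 119 to 553, with an exact 95% interval of 1.73 to 1.76% on day 553. bc8 and bc9 followed the same course, with 6.45% and 6.28% at day 187 and 1.76% and 1.62% at day 553. On days 119, 187, 266 and 365, bc7 had 11.1, 4.10, 0.888 and 0.0263% of Gr reads and 8.26, 8.23, 4.08 and 0.136% of Mono reads. It was thus higher in Gr than in Mono at day 119 and lower on the later 3 days. The next largest in T by mean were bc12 and bc14, which reached 1.73% at day 187 and 1.32% at day 119, and still held 0.519% and 0.415% at day 553.

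Set against granulocytes of the same late days, most members were higher in T. The fit used the T, B, Gr and Mono libraries of days 266, 365, 494 and 553, none of which served the rule. It held 318 barcodes that reached 0.05% at day 119 or 187, so that all 44 members were tested. The nRBC ceiling of the rule did use days 266, 494 and 553. It left out the 7 barcodes that held 15.7% of Gr reads at day 266 and 99.6% at day 365. A low late Gr share in the members, and with it T above Gr, may thus partly follow from the choice of members. By edgeR's quasi-likelihood test, 31 of the 44 had more in T than in Gr and 0 had less, at adjusted p-values from 0.00971 to 0.0489. Being higher was common among all barcodes tested, of which 46.5% were called. Barcodes other than the members could enter the fit through a T or B share. The median log2 difference was 12.30 in the members and 9.13 over all 318, but these fitted sizes depend on how zeros are handled, so folds of mean shares are given instead, with zeros at 100 reads. bc60 averaged 0.237% ± 0.0526 in T and was listed at 0 in Gr on all 4 days (SD, n = 4 days), so T exceeded Gr at least 82.1-fold (edgeR adjusted p = 0.00971). bc61 averaged 0.160% ± 0.0232 in T, at least 55.4-fold higher, and bc67 0.133% ± 0.0449, at least 46.1-fold higher, both also at 0 in Gr on all 4 days and with the same adjusted p by edgeR. bc7 averaged 3.72% ± 1.58 in T and 0.231% ± 0.438 in Gr, a 16.1-fold difference (edgeR adjusted p = 0.00971), and was higher in T on 4 of 4 days.

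Not all members were higher in T on each day. At day 266, 31 of 44 members were higher in T than in Gr, and at day 365 it was 43 of 44. bc22 and bc27 were called higher in T although their mean shares were lower there, at 0.305% in T against 0.431% in Gr for bc22 and 0.300% against 0.354% for bc27. Both were higher in Gr at day 266 (1.72% and 1.41%) and higher in T on the other 3 days. Of the 13 not called, 6 were the barcodes described below as almost lost from T. For bc32, bc35, bc37, bc38, bc40 and bc42 the edgeR adjusted p lay between 0.0555 and 0.0759, and bc77 had 0.176. Leaving out day 266 gave 37 calls in place of 31, and 177 among all 318 barcodes. Leaving out day 365, 494 or 553 gave 0 among the members and 0 among all 318 barcodes, with median log2 differences in the members of 13.17, 9.88 and 10.84. With libraries scaled to the reads outside the 7 nRBC barcodes it was 3, against 26 of the 311 barcodes tested there. Without day as a block it was 2, against 36 of 318.

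B cells held far less of the members than T cells did. Over days 32, 119, 187, 266, 365, 393, 494 and 553 the summed B shares were 0.133, 5.40, 2.15, 1.26, 1.13, 0.153, 0.281 and 0.0841%. From day 119 on, 43, 34, 28, 37, 19, 11 and 12 members were listed in these B libraries. At day 553 this was 27.3% of the members, against 71.9% of the other barcodes tested. Those others could enter through a B or T share of days 119 and 187, while the members were chosen through Gr or Mono. The contrast may thus follow from how each set was chosen. The share was highest at day 119 in 40 members. bc14, bc12 and bc17 had the highest shares in B at that day, at 0.542%, 0.540% and 0.501%, while bc7, bc8 and bc9 were highest at day 187, at 0.454%, 0.541% and 0.437%. At day 553 the highest member in B was bc40 at 0.0149%.

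Over the same 4 late days, 26 of 44 members were higher and 0 lower in T than in B by edgeR (adjusted p 0.0152 to 0.0441), where 19.5% of all 318 barcodes were called higher in T. The median log2 difference was 10.61 in the members and 0.10 over all tested. bc78 averaged 0.0691% ± 0.0385 in T and was listed at 0 in B on all 4 days (SD, n = 4 days), so T exceeded B at least 12.1-fold (edgeR adjusted p = 0.0152). bc16 averaged 0.701% ± 0.297 in T and 0.0161% ± 0.0218 in B, at least 35.1-fold higher (edgeR adjusted p = 0.0152). bc41 averaged 0.557% ± 0.205 in T and 0.00361% ± 0.00721 in B, at least 66.9-fold higher (edgeR adjusted p = 0.0166). On 4 of 4 days 37 of the 44 members were higher in T than in B, these 3 among them. Leaving out day 266, 494 or 553 gave 0 calls in place of 26, leaving out day 365 gave 6, and a fit with no day block gave 0. Over all 318 barcodes these fits called 0, 6 and 20 higher in T.

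In B against Gr over these days, edgeR called 0 of 44 members, and for 0 of them was the unadjusted p under 0.05, while 29.2% of the 318 barcodes tested were called higher in B. The other barcodes tested here, and in T against B, could enter through a B share, whereas members were chosen through Gr or Mono. DESeq2 called 4 members higher and 2 lower, against 168 higher and 12 lower among all 318 barcodes. The lowest edgeR adjusted p of a member was 0.184. With zeros in Gr at 100 reads, the mean B share over the 4 days was above the Gr mean in 2 of 44 members, bc71 (at least 2.83-fold) and bc69 (at least 1.16-fold), both named after their values were seen. B exceeded Gr in 37 members at day 365 and in 11 at days 494 and 553, against 3 at day 266.

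The decline was tested as a slope per 100 days from day 266 on, over 6 T, 5 B, 4 Gr and 4 Mono libraries. In T, 0 of 44 members fell by edgeR and 0% of all barcodes tested were called, with 1 member at an unadjusted p under 0.05. DESeq2 called 1 member lower in T, and 17 of all 318 barcodes. The fitted slope in T was below 0 in 43 of 44 members, with a median of −0.44 on the log2 scale against −0.24 over all 318 barcodes. The T slope of bc7 was −0.54 ± 0.73 (SE). In B, 3 members fell, bc67, bc31 and bc22 (edgeR adjusted p = 0.00883, 0.0172 and 0.0197), where 1.26% of all tested were called lower. Of these, bc67 had at most 0.00681% of B reads on any day and was listed at 0 from day 365 on. DESeq2 called 23 in B, leaving out day 266 gave 19, day 365 gave 11, day 494 or 553 gave 1, and zeros set at 100 reads gave 0. Over all 318 barcodes these fits called 40, 29, 17, 2 (day 494) or 3 (day 553), and 0 lower. The slope was higher in T than in Gr for 33 of 44 members by edgeR, and for 62.3% of all barcodes tested, with a median log2 difference of 5.82 in the members and 4.99 overall. Without day 266 the count was 8, and 20 over all 318 barcodes, and the median turned to −0.38 in the members and −0.31 overall. With zeros at 100 reads the median was 1.56 in the members and 1.09 overall. With scaling to the reads outside the 7 nRBC barcodes the count was 1, against 29 of 311 barcodes tested.

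The members fell into sets with correlated shares over the T and B libraries, which the rule did not use. At a Pearson r of at least 0.95 between all pairs over the 17 T and B libraries, 37 of the 44 members formed 7 groups and 7 stood alone. These correlations share libraries and depth and are a description with no test. They also pool T with B, and the late T mean was a median of at least 24.5-fold the B mean. All 44 members were at 0 in T at day 32 as well. A high r thus reflects these shared levels as well as the course over days. The bc7 group held bc7, bc8, bc9, bc22 and bc27 (lowest r 0.96), with 11.4, 20.4 and 5.41% of T reads on days 119, 187 and 553. The bc12 group (bc12, bc14, bc16, bc17, bc20, bc24 and bc31) held 7.80%, 8.13% and 2.42% on these days. The bc32 group (bc32, bc34, bc35, bc37, bc38, bc39, bc41, bc44 and bc45) held 4.58%, 3.28% and 1.28%. Members of a group could differ in their T course. The T share at day 187 was 1.87-fold that at day 119 in bc7 but 0.517-fold in bc22. Within the bc32 group this ratio was 1.46 in bc45 and 0.347 in bc44.

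The other groups were smaller and differed in their T course. The bc33 group, with bc36, bc46 and bc56, took 2.65, 1.58 and 0.244% of T reads on days 119, 187 and 553. The bc42 group, with bc43, bc49, bc55 and bc78, held 1.67%, 2.88% and 0.559%. The bc59 group, with bc60, bc61, bc64 and bc67, held 0.565%, 1.07% and 0.527%, so its T share at day 553 was close to that at day 119. In the myeloid libraries this group held only 1.00% of Gr and 1.68% of Mono reads at day 119. bc72 and bc75 formed the last group. Members of a group could differ in Gr. Within the bc7 group, bc22 and bc27 had 1.37-fold and 1.44-fold their day 187 Gr share at day 266, whereas bc7 had 0.888% on day 266, below its 4.10% of day 187.

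The groups also differed in B. The bc12 group held 2.87% of B reads at day 119, more than the 1.27% of the bc7 group, although it held less of T, Gr and Mono on that day. At day 187 the order was turned, with 0.442% in the bc12 group and 1.48% in the bc7 group. The B share of the bc59 group was at most 0.0400%, at day 119, and it was listed at 0 in B from day 393 on. The T share of a member at day 119 was a median of 0.328 of its mean Gr and Mono share of that day. It was above that share in 2 of 44 members, bc36 at 1.30-fold and bc49. For B the median was 0.0446, and the highest was 0.205, in bc14.

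A small set of members left almost no T cells. It was picked after the values were seen, as the members with a mean T share under 0.02% over the 4 late days, and so has no test. These were bc68, bc69, bc71, bc72, bc75 and bc84. Together they held 4.31% of Gr reads, 2.65% of Mono reads, 0.528% of T reads and 0.190% of B reads at day 119. At day 187 this was 0.256% in Gr, 0.532% in Mono, 0.140% in T and 0.0563% in B. At days 365, 494 and 553 all 6 were listed at 0 in Gr and Mono, and at day 553, 2 of them were listed in T with 0.0107% of reads in sum.

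Which myeloid lineage held more of a member after day 187 depended on the scaling. By share of all reads, 13 members were higher in Mono and 26 in Gr at day 266, but over the reads outside the 7 nRBC barcodes it was 22 in Mono and 17 in Gr. bc22 had 1.35% of Mono and 1.72% of Gr reads, and 2.43% and 2.04% of the other reads. By day 365, 32 members had more in Mono and 1 had more in Gr by all reads, against 27 and 6 by the other reads. Of these 27, 20 were listed at 0 in Gr, where a listed 0 allows up to 0.753% of the other reads, against 0.172% in Mono. On that scale bc7 had 7.34% in Mono and 7.18% in Gr at day 365. The scaling was added after the data were seen. Within the libraries of the rule, bc77 and bc57 had the most uneven shares at day 187, with 0.210% in Gr and 0.0211% in Mono for bc77 and 0.167% and 0.0181% for bc57. Between days 266 and 365 their T shares were 0.00656% and 0.128% for bc77, and 0.0675% and 0.288% for bc57. Both were named after their values were seen, and these single libraries allow no test.

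Other libraries of the late period held traces of the same barcodes. The EOS library of day 494 listed 12 of the 44 members with 0.106% of reads in sum, led by bc7 at 0.0277%, bc9 at 0.0237% and bc8 at 0.0188%. On that day the Gr library listed 3 members and the Mono library 0. The CD34p library of day 553 listed 2, bc7 at 0.00312% and bc9 at 0.00326%. The nRBC libraries, which the rule used, listed 5, 14, 3, 0 and 2 members on days 266, 309, 393, 494 and 553, with a highest summed share of 0.461% at day 309.

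Close to the thresholds, bc78 (0.216%) and bc64 (0.253%) were the members with the lowest top share, and bc80 (0.182%) and bc209 (0.0998%) were nearest below 0.2%. For the ratio of day 119 to day 187, bc27 (1.05) and bc24 (1.21) lay just inside and bc29 (0.9795) and bc54 (0.855) just outside. bc7 had the highest mean over nRBC of any member, 0.0382%, followed by bc9 at 0.0341%, while bc11 at 1.36% and bc6 at 14.3% were the lowest of those left out by that ceiling. One barcode outside the rule, bc10, is named because its values, once seen, tracked bc7 from day 187 on in T. Its T share was 0.446% at day 119, 0.120-fold that of bc7, but 0.8996-fold at day 187, 0.979-fold at day 266 and 0.922-fold at day 553. In Gr it was 0.206-fold that of bc7 at day 119, 0.402-fold at day 187 and 1.05-fold at day 365, and in Mono 0.233-fold at day 119 and 0.959-fold at day 187. The 7 barcodes higher at day 187 held 7.18% of Mono, 6.96% of Gr and 5.12% of T reads at day 119, and 2.30% of T reads at day 553 with 7 of 7 listed.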

How the data were processed

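The PCR that retrieved the barcodes took 200 ng of DNA through 28 cycles (per the labels' protocols). The authors deposited 1 table of read counts per barcode and library, with the unit taken here from its whole numbers and unequal column sums. Counter and filters: not given in the sources used here. No molecular identifiers are recorded, so intervals (exact Clopper-Pearson, 95%) cover counting error only.

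Counts were turned into percent of the column sum. edgeR 4.0.16 (glmQLFit and glmQLFTest, R 4.3.3) was fitted on the counts of 318 barcodes with at least 0.05% in 1 or more of the T, B, Gr and Mono libraries of days 119 and 187, with column sums as library sizes and Benjamini-Hochberg adjustment over all 318. The level fit held lineage and day over 16 libraries. The slope fit held an intercept and a slope for each lineage over 19 libraries. Both were tested on simulated data. Groups used complete linkage on log2(percent + 0.01). Edit distances were taken with edlib. No batch is given in the labels. The members, lists and tests were chosen with earlier results of these data known. Named were the 10 members highest at day 119, the 5 highest in T and in B, the 3 highest in late Gr or Mono and at day 32, the 3 called members with the largest change per comparison, and those next to each threshold.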

Additional observations from a re-analysis of the deposited data

Results flagged for a closer look

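Several shares of single days stood far from the other days of their lineage. For the summed share of the members these were B at day 119 (5.40%), Gr at day 119 (76.0%, a day the rule used) and nRBC at day 309 (0.461%). In B at day 119 they were bc12 (0.540%), bc14 (0.542%), bc16 (0.429%), bc17 (0.501%), bc31 (0.283%), bc32 (0.0468%), bc33 (0.0608%), bc34 (0.0599%), bc39 (0.0691%), bc41 (0.0932%), bc44 (0.0512%) and bc78 (0.0114%). In T they were bc34 (0.595%) and bc44 (0.376%) at day 119 and bc78 (0.267%) at day 187. That is 18 of 45 sets of values. The mark is a Dixon outlier test, by which chance alone would mark about 1 in 20 sets of independent, normally distributed values. Days of a time course are not independent, and shares with zeros and a peak are not normally distributed.

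The slope from day 266 on differed between T and Gr in 33 of 44 members by edgeR, where 62.3% of all barcodes tested were called. Values are given for the members named for a high share or a large change, not for those named only for a threshold. In those called, the log2 difference per 100 days, T minus Gr, was 2.03 in bc8, 5.84 in bc12, 5.87 in bc14, 5.82 in bc16, 5.72 in bc17, 6.97 in bc22, 6.86 in bc27, 6.12 in bc31, 6.69 in bc32, 6.85 in bc33, 6.44 in bc34, 7.09 in bc39, 4.89 in bc41, 6.91 in bc44 and 5.88 in bc78. Not called were bc7 (1.93), bc9 (2.11), bc60 (−0.28), bc61 (−0.0978) and bc67 (−0.24). As bc60, bc61 and bc67 were listed at 0 in Gr on all 4 late days, their values give no slope in Gr. For bc39 the value was 2.43 with zeros at 100 reads and −0.17 without day 266. On at least 2 of the 4 late days, 41 of 44 members were listed at 0 in Gr.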

How the results depend on the processing

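Counts are members called. T above Gr (31) was 3 scaled to reads outside the nRBC barcodes, 10 with the filter at 0.01%, 2 with no day block, and 0 to 37 with 1 day left out. All tested gave 26, 37, 36 and 0 to 177. T above B (26) was 11 with that filter, 0 with no day block and 0 to 6 with 1 day left out. All tested gave 23, 20 and 0 to 6. B above Gr (0) was 4 by DESeq2, 1 with zeros at 100 reads and 0 to 4 with 1 day left out. All tested gave 168, 81 and 0 to 123. Fall in T (0) was 1 by DESeq2 and 0 with any 1 day left out. All tested gave 17 and 0 to 2. Fall in B (3) was 1 with TMM factors, 23 by DESeq2, 10 with the filter at 0.01%, 13 with no filter, 0 with zeros at 100 reads, and 1 to 19 with 1 day left out. All tested gave 2, 40, 17, 20, 0 and 2 to 29. T minus Gr slopes (33) gave 1 scaled to other reads and 8 to 31 with 1 day left out. All tested gave 29 and 20 to 179. The cause of these moves was not tested. Against Mono in place of Gr, chosen after seeing the data, T above was 34 and the slope difference 29. All tested gave 175 and 164. A least share of 0.1% or 0.5% gave 45 or 37 members, with 10.7% or 10.1% of T reads at day 553. Members in groups ran from 27 to 40 over the settings on r and pseudocount and from 34 to 38 with 1 day left out. Of 156 refits of the 12 called values of single members, 115 kept their call, 38 lost it and 3 reversed, namely bc67 in B with zeros at 100 reads (0.11), and bc39 (−0.17) and bc44 (−0.21) for the T minus Gr slope without day 266. Depth limits what can be said of zeros at days 494 and 553 in Gr and Mono.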
